A study of Mus musculus with 14 samples.

Results

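The acyl-CoA thioesterases described here are 7 mouse genes, Acot1, Acot2, Acot3, Acot4, Acot8, Acot12 and Acot13, followed through 14 whole-kidney RNA-sequencing libraries. They were taken by symbol from a count table of 24421 genes, of which 14854 had enough counts to test. All 7 passed that filter, and the lowest count of any of them in a library was 279, for Acot3. The genes were chosen from the thioesterase family with levels and fold changes of these same libraries known, and which contrast chose them is not recorded. Their levels, fold changes and adjusted p-values are therefore a description of chosen genes and no independent evidence.

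The kidneys came from male C57BL/6J mice. MnDps, a protein nanocage, was given intravenously at a dose of 18 mg/kg, 24 h (2 libraries) or 4 h (3 libraries) before the kidneys were taken. Dps, the cage labelled without Mn, was given at the same dose and by the same route, with kidneys at 24 h (3 libraries) and 4 h (3 libraries). Control mice received vehicle (3 libraries), and their labels carry no time point, so the time of day of a kidney and its treatment cannot be told apart. Age is not given in the sources used here, nor what the vehicle held, what Mn stands for in the cage or whether the injected proteins carried endotoxin. Nothing in the labels states that the libraries of a group come from separate animals, so the p-values measure only the spread between these libraries.

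An acyl-CoA thioesterase cuts the bond between a fatty acid and coenzyme A, which gives back free acid and free coenzyme A. The reaction runs against that of the acyl-CoA synthetases, and it occurs in the cytosol, in mitochondria and in peroxisomes. Proximal tubule cells burn fatty acids as their main fuel, and in mouse liver the neighbouring genes Acot1 to Acot6 are known targets of PPAR-alpha, the nuclear receptor that responds to fatty acids in fasting. Acot1 encodes the cytosolic enzyme for long acyl chains and Acot2 its mitochondrial counterpart. Acot3, Acot4 and Acot8 encode peroxisomal enzymes, of which the Acot4 enzyme prefers short dicarboxylic chains such as succinyl-CoA. Acot12 encodes a cytosolic acetyl-CoA hydrolase, and Acot13, also called Them2, a small enzyme found on mitochondria.

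On GRCm38, with GENCODE M21 annotation, the first 4 genes lie side by side on the plus strand of chromosome 12. Acot2 occupies 83987861 to 83993873, Acot1 84009490 to 84018371, Acot4 84038379 to 84048601 and Acot3 84052144 to 84060402. Acot5 and Acot6, copies outside the 7 genes, follow on the same strand. Acot8 lies on the minus strand of chromosome 2 at 164792765 to 164804882, Acot12 on the plus strand of chromosome 13 at 91741512 to 91786148 and Acot13 on the minus strand of chromosome 13 at 24817948 to 24831540.

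The coding sequences of Acot1 and Acot2 are 95.3% identical, with 58 differences over 1236 aligned bases, so a result on one copy depends on whether reads can be placed on it. Acot1 shares 83.9% with Acot3 and 74.6% with Acot4. The stretch of 60 coding bases below shows where the pair can be told apart. It covers coding bases 823 to 882 of Acot1 and 946 to 1005 of Acot2, in the GRCm38 reference, 5′ to 3′ on the coding strand, and the capitals mark its 13 differing bases:
Acot1: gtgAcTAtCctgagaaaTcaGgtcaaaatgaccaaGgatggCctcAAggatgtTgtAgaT
Acot2: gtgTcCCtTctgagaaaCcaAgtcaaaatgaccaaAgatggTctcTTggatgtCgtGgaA

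Reads were 75 bases long from each end. Of all 75-base windows of the longest Acot1 transcript, 15.5% also occur in the transcripts of another gene, and 14.8% occur in Acot2. The share was 21.2% for Acot2, 16.5% for Acot3 and 1.80% for Acot4, whereas no such window was found for Acot8, Acot12 or Acot13. For Acot3, 10.6% of all windows occur in Gm49366, which overlaps it on the same strand and is not in the count table. The sources used here do not state how reads that fit several genes were counted, and values of Acot1, Acot2 and Acot3 are uncertain to that extent. Overlapping genes add a second limit, since the strand setting of the counting is not given either. Of the Acot3 exon bases, 11.5% overlap Gm49366 on the same strand and 9.08% overlap 4732463B04Rik on the opposite strand, which also covers 9.22% of the Acot4 exon bases. Of the Acot8 exon bases, 12.3% overlap Snx21 on the opposite strand, and of the Acot12 exon bases 4.53% overlap 4833422C13Rik.

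The sequences just before the starts of the neighbouring genes differ, and are shown so that the upstream letters of the copies can be set side by side. The last 120 bases upstream of each RefSeq start are shown (GRCm38.p6, plus strand, 5′ to 3′). For Acot1 this window runs past the GENCODE start given above, 84009490. Capitals mark CCAAT, or its reverse complement ATTGG, and TGACCT, the reverse complement of AGGTCA, the core letters of nuclear receptor sites. The windows are chr12:84009382-84009501 for Acot1, chr12:83987741-83987860 for Acot2, chr12:84052024-84052143 for Acot3 and chr12:84038259-84038378 for Acot4:
Acot1: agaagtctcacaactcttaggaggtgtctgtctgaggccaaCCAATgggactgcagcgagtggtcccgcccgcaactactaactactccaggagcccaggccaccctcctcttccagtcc
Acot2: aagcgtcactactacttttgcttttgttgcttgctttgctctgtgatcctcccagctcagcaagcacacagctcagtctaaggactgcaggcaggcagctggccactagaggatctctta
Acot3: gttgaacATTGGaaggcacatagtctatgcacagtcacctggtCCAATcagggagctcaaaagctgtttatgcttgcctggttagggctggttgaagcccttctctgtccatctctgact
Acot4: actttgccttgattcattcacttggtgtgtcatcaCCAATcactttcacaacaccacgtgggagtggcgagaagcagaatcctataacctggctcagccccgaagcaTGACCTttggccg

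In the 250 bases upstream, searched on both strands, CCAAT occurred in Acot1, Acot2, Acot3, Acot4 and Acot8, and in 33.8% of all 32851 RefSeq mouse promoters in the table. AGGTCA occurred in Acot4 and in Acot12, and in 4607 of all promoters. A direct repeat of AGGTCA with 1 base between the copies, the form in which PPAR-alpha sites are usually written, occurred in none of the 6 promoters found and in 0.0335% of all. These matches are descriptions of letters in a window and say nothing of whether a factor binds. Acot13 had no entry in the table.

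Total counts ran from 15097093 to 42074942 per library, and 3 libraries, Dps 4 h libraries 1 and 2 and control library 3, exceeded 30000000. Libraries of the same group were set against each other in pairs, and each pair exceeded counting error, at a chi-square of 7.74 to 29.3 per degree of freedom. All 15 proximal tubule markers were detected in every group, with a summed level between 57718 and 85208 CPM, the counts scaled to a common library size. Kap, a kidney androgen-regulated protein gene, made up most of that sum in the treated groups, with means of 37969 CPM in MnDps kidneys at 24 h, 51920.1 CPM in MnDps kidneys at 4 h, 44976 CPM in Dps kidneys at 24 h and 34696 CPM in Dps kidneys at 4 h. Over vehicle, 2 of the 15 markers rose and 8 fell with MnDps at 4 h (median -0.28 log2), where 45.6% of all genes were called. With Dps at 4 h none rose and 4 fell (median -0.15 log2), where 14.6% of all genes were called. All 8 interferon response genes checked rose at 4 h after either protein. In whole kidney, fewer cells of a type and less RNA per cell cannot be told apart.

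Set per transcript length (RPKM, the scaled level divided by the length of the longest transcript), Acot13 was the most abundant of the 7 genes, with a mean over 14 libraries of 184.7 RPKM. Acot12 followed with 73.1 RPKM, then Acot1 with 36.4, Acot8 with 23.5, Acot2 with 11.7, Acot4 with 9.78 and Acot3 with 7.67 RPKM. In every group but MnDps at 4 h, Acot13 and Acot12 stood above the other members in all libraries. The order below them moved with treatment. In MnDps kidneys at 4 h, Acot1 lay between 58.7 and 79.6 RPKM, above Acot8 at 27.6 to 30.9 RPKM and overlapping the lower edge of Acot12. In MnDps kidneys at 24 h, Acot1 spanned 18.3 to 30.3 RPKM and overlapped Acot8. In Dps kidneys at 24 h, Acot1 was below Acot8, with 17.4 to 21.5 RPKM for Acot1 and 21.9 to 24.8 RPKM for Acot8. In controls, Acot1 stood above Acot8, at 25.7 to 29.8 RPKM for Acot1 and 17.9 to 22.8 RPKM for Acot8. Acot2 and Acot4 overlapped at 24 h after either protein and were apart in the other groups. Acot4 and Acot3 overlapped in MnDps kidneys at both times and were apart in Dps kidneys and controls.

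**Figure D1:**
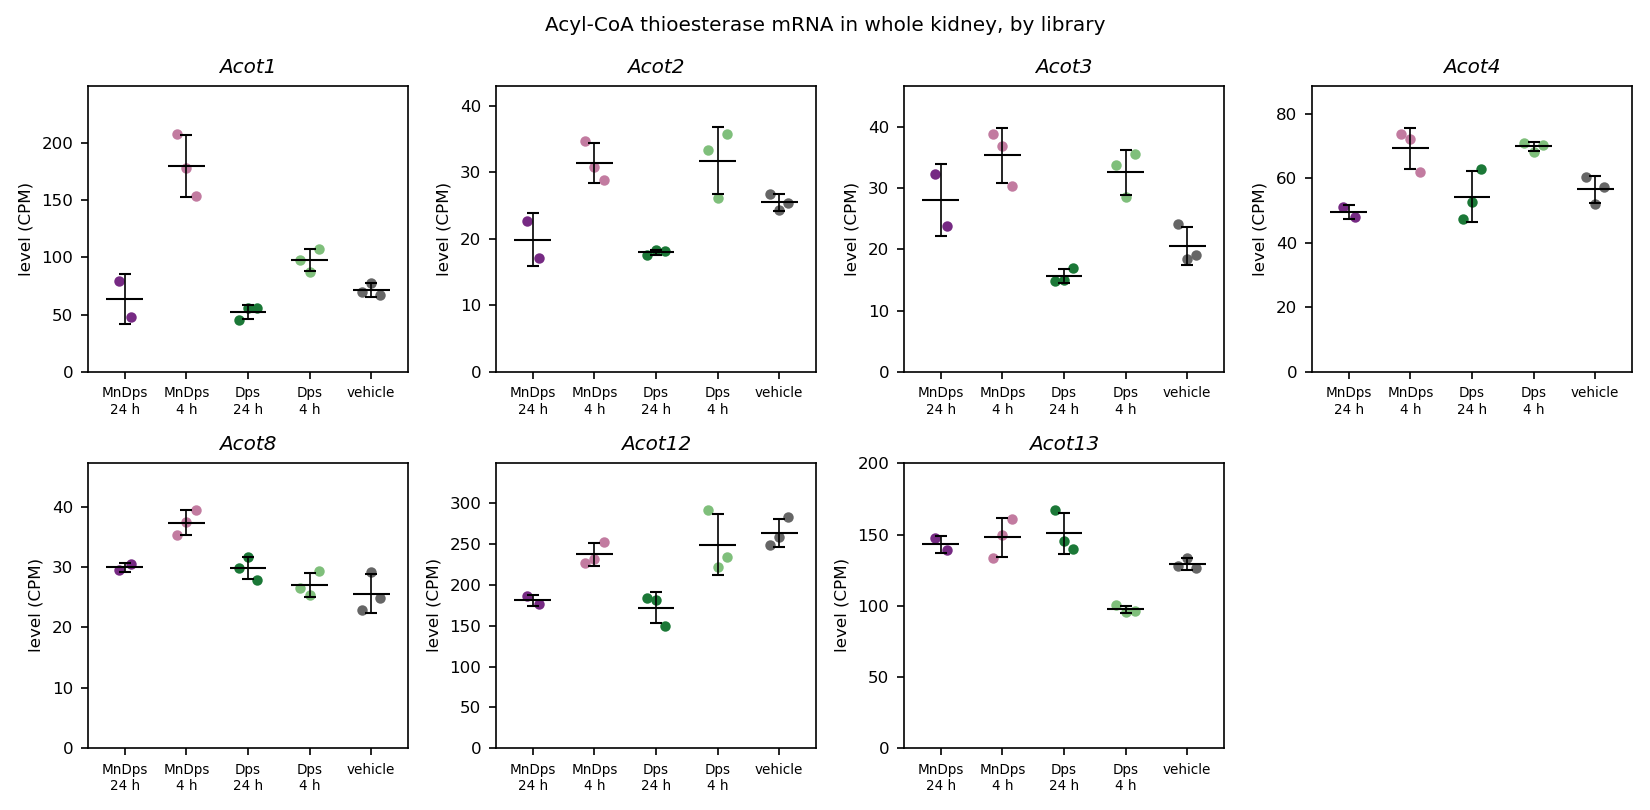
Level of each acyl-CoA thioesterase in CPM (y axis, from 0) in the 14 libraries, by group along the x axis. Points are libraries, the long bar is the group mean and the whiskers are 1 SD (n = 2 for MnDps at 24 h, 3 elsewhere); the Acot1 points of MnDps at 4 h, at 153 to 208 CPM, lie above all other points of that gene.

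The cytosolic enzyme gene Acot1 had the widest span of the family. It measured 79.2 and 47.8 CPM in MnDps kidneys at 24 h and 208, 178 and 153 CPM in MnDps kidneys at 4 h. The values were 45.5, 55.5 and 56.1 CPM in Dps kidneys at 24 h, 98.0, 87.4 and 107 CPM in Dps kidneys at 4 h, and 69.3, 77.9 and 67.1 CPM in controls. The 3 MnDps libraries at 4 h were the highest of all 14 and overlapped with no other group. All 3 Dps libraries at 4 h also lay above every control, and all 3 Dps libraries at 24 h below every control. At 4 h, Acot1 rose with MnDps over vehicle by 1.33 ± 0.16 on the log2 scale (edgeR quasi-likelihood test, Benjamini-Hochberg adjusted p = 3.31e-05), which is 2.52-fold. MnDps exceeded Dps at 4 h by 0.89 ± 0.16 log2 (adjusted p = 0.000657). Dps over vehicle gave 0.45 ± 0.16 log2 at 4 h (adjusted p = 0.0769) and -0.45 ± 0.16 log2 at 24 h (adjusted p = 0.0665), neither past the threshold of 0.05. Both passed with DESeq2 (adjusted p = 0.0346 and 0.0269) and in edgeR fits of only the groups compared (adjusted p = 0.00778 and 0.00727). Neither passed with a trend on transcript length and GC content removed (adjusted p = 0.111 and 0.0997).

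By 24 h the Acot1 level was below that at 4 h for both proteins. It fell by 1.51 ± 0.19 on the log2 scale between MnDps 24 h and MnDps 4 h (adjusted p = 9.72e-05) and by 0.89 ± 0.16 between Dps 24 h and Dps 4 h (adjusted p = 0.000643). The difference between these falls was -0.61 ± 0.24 log2 and did not pass (adjusted p = 0.0713), though it passed with DESeq2 (adjusted p = 0.0363). It depended on the MnDps 24 h libraries, being -1.02 log2 without library 1 (adjusted p = 0.00396) and -0.29 log2 without library 2 (adjusted p = 0.347). At 24 h the MnDps libraries lay on either side of the controls.

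Acot2, the mitochondrial copy, measured 22.7 and 17.1 CPM in MnDps kidneys at 24 h and 34.7, 30.8 and 28.8 CPM in MnDps kidneys at 4 h. Dps kidneys held 17.6, 18.3 and 18.1 CPM at 24 h and 33.3, 26.1 and 35.8 CPM at 4 h, and controls 26.8, 24.3 and 25.4 CPM. Both 24 h groups lay entirely below the controls, and the 4 h groups overlapped with each other. MnDps and Dps at 4 h differed by -0.01 ± 0.12 log2 (adjusted p = 0.960). Dps at 24 h over vehicle gave a lower level, with -0.50 ± 0.12 log2 (adjusted p = 0.0120), a call lost without control library 3 (adjusted p = 0.0506). From 4 h to 24 h Acot2 fell by 0.67 ± 0.14 log2 with MnDps (adjusted p = 0.00320) and by 0.81 ± 0.12 log2 with Dps (adjusted p = 9.53e-05). The MnDps fall did not pass without MnDps 24 h library 2, where it was -0.47 log2 (adjusted p = 0.0889). MnDps at 4 h over vehicle stood at the threshold, with 0.30 ± 0.12 log2 (adjusted p = 0.0500264), and at 0.06 ± 0.13 log2 with a trend on transcript length and GC content removed (adjusted p = 0.768).

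The difference between the 2 near-identical copies was visible inside each library, where it does not depend on scaling. Acot1 had 3.49 and 2.80 counts per Acot2 count in MnDps kidneys at 24 h and 5.99, 5.78 and 5.32 in MnDps kidneys at 4 h. The ratio was 2.58, 3.04 and 3.09 in Dps kidneys at 24 h, 2.94, 3.35 and 2.98 in Dps kidneys at 4 h, and 2.59, 3.21 and 2.64 in controls. The MnDps 4 h libraries thus stood apart from the other 11, which ran from 2.58 to 3.49. The ratio was 1.85-fold that of Dps at 4 h and 2.03-fold that of vehicle, each with an exact 2-sided permutation p of 0.1, the smallest that 3 against 3 libraries allow. With the counts of Acot1 and Acot2 summed before the fit, MnDps at 4 h exceeded vehicle by 1.11 ± 0.14 log2 (adjusted p = 3.84e-05) and Dps at 4 h by 0.70 ± 0.14 log2 (adjusted p = 0.00116). How reads were split between the copies was not tested.

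**Figure D2:**
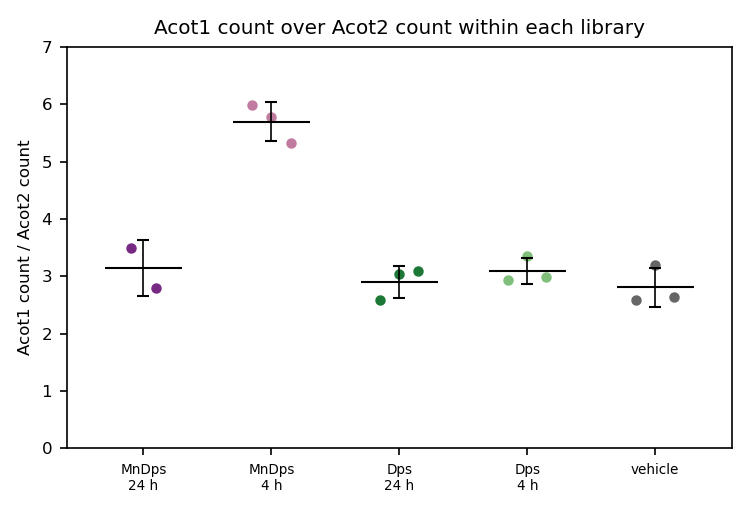
Acot1 count divided by Acot2 count in each library (y axis, no unit, from 0) by group along the x axis; points are libraries, the long bar is the mean and the whiskers are 1 SD. MnDps kidneys at 4 h averaged 5.70 ± 0.35 (SD, n = 3), and no library of the other groups exceeded 3.49.

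Acot3, a peroxisomal copy, followed another order. It measured 32.3 and 23.9 CPM in MnDps kidneys at 24 h and 38.9, 36.9 and 30.3 CPM in MnDps kidneys at 4 h. The values were 14.9, 14.99 and 17.0 CPM in Dps kidneys at 24 h, 33.8, 28.5 and 35.6 CPM in Dps kidneys at 4 h, and 24.2, 18.4 and 19.1 CPM in controls. Every library at 4 h lay above every control, and every Dps library at 24 h lay below them. At 4 h Acot3 rose with MnDps by 0.79 ± 0.14 log2 (adjusted p = 0.000298) and with Dps by 0.67 ± 0.14 log2 (adjusted p = 0.00289), both over vehicle. MnDps and Dps at 4 h differed by 0.12 ± 0.13 log2 (adjusted p = 0.488). At 24 h over vehicle Acot3 stood at -0.39 ± 0.14 log2 with Dps (adjusted p = 0.0600) and 0.45 ± 0.15 log2 with MnDps (adjusted p = 0.0613), neither called. Both passed with DESeq2 (adjusted p = 0.0437 and 0.0409), and neither with a trend on transcript length and GC content removed (adjusted p = 0.106 and 0.0999).

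At 24 h Acot3 was higher after MnDps than after Dps by 0.84 ± 0.15 log2 (adjusted p = 0.0232), the only member called in that comparison. This call was lost without MnDps 24 h library 1 (0.60 log2, adjusted p = 0.179) and without any of the Dps 24 h libraries (0.80 to 0.90 log2, adjusted p between 0.0598 and 0.0909). From 4 h to 24 h, Acot3 fell by 1.06 ± 0.14 log2 with Dps (adjusted p = 3.02e-05), whereas with MnDps the difference was -0.34 ± 0.15 log2 (adjusted p = 0.115). Without 1 library in turn the MnDps difference ran from -0.58 to -0.13 log2, and it passed without MnDps 24 h library 1 (-0.58 log2, adjusted p = 0.0476) or MnDps 4 h library 3 (-0.45 log2, adjusted p = 0.0495). The 2 time courses differed by 0.72 ± 0.20 log2 (adjusted p = 0.0148), and without MnDps 24 h library 1 by 0.49 log2 (adjusted p = 0.113). Within libraries, the Acot3 count was 1.40 to 1.42 times the Acot2 count in MnDps kidneys at 24 h and 0.820 to 0.937 times in Dps kidneys at 24 h.

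Acot4, whose peroxisomal enzyme acts on short dicarboxylic acyl-CoAs, measured 51.0 and 47.9 CPM in MnDps kidneys at 24 h and 73.8, 72.1 and 62.0 CPM in MnDps kidneys at 4 h. Dps kidneys held 47.4, 52.6 and 63.0 CPM at 24 h and 71.0, 68.3 and 70.4 CPM at 4 h, and controls 60.5, 52.1 and 57.2 CPM. Both 4 h groups lay wholly above the controls. Acot4 rose at 4 h by 0.29 ± 0.10 log2 with MnDps (adjusted p = 0.0227) and by 0.30 ± 0.10 log2 with Dps (adjusted p = 0.0467) over vehicle. With a trend on transcript length and GC content taken out of each library, the MnDps value was 0.58 ± 0.07 log2 (adjusted p = 2.29e-05). The MnDps call was lost without MnDps library 1 or 2 or control library 2 or 3 (0.22 to 0.30 log2), and the Dps call without any library but control 1 (0.24 to 0.33 log2) and with a term for deep libraries (adjusted p = 0.0848). From 4 h to 24 h Acot4 fell by 0.49 ± 0.11 log2 with MnDps (adjusted p = 0.00571; 0.0770 without MnDps 24 h library 2) and by 0.36 ± 0.10 log2 with Dps (adjusted p = 0.00690).

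The neighbours Acot1 to Acot6 can also be read as 1 block. The share of their summed counts taken by Acot1 was 38.0 ± 5.51% (SD, n = 2) in MnDps kidneys at 24 h and 55.9 ± 1.48% (n = 3) in MnDps kidneys at 4 h. It was 36.7 ± 1.62% in Dps kidneys at 24 h, 40.8 ± 0.942% in Dps kidneys at 4 h and 40.0 ± 3.70% in controls (n = 3 each). The summed block rose by 0.82 ± 0.11 log2 with MnDps and by 0.40 ± 0.11 log2 with Dps at 4 h over vehicle (adjusted p = 4.68e-05 and 0.0237), and stood lower with Dps at 24 h, with -0.34 ± 0.11 log2 over vehicle (adjusted p = 0.0460).

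Acot8, the peroxisomal gene on chromosome 2, measured 29.4 and 30.4 CPM in MnDps kidneys at 24 h and 35.3, 37.4 and 39.4 CPM in MnDps kidneys at 4 h. Dps kidneys held 29.9, 31.6 and 27.9 CPM at 24 h and 26.5, 25.4 and 29.3 CPM at 4 h, and controls 22.8, 29.1 and 24.8 CPM. The 3 MnDps libraries at 4 h were above all other 11. Acot8 rose with MnDps at 4 h by 0.55 ± 0.09 log2 over vehicle (adjusted p = 0.000313) and by 0.47 ± 0.09 log2 over Dps (adjusted p = 0.000942). From 4 h to 24 h it fell by 0.32 ± 0.11 log2 with MnDps (adjusted p = 0.0422), a call lost without MnDps 4 h library 2 or 3 or either MnDps 24 h library (-0.34 to -0.29 log2). It was also lost in a fit of only the groups compared (-0.30 log2, adjusted p = 0.0883) and with a trend on transcript length and GC content removed (-0.15 ± 0.09 log2, adjusted p = 0.277). With Dps the change over time was 0.14 ± 0.09 log2 (adjusted p = 0.236), and the 2 time courses differed by -0.46 ± 0.14 log2 (adjusted p = 0.0228). That difference did not pass without either MnDps 24 h library, Dps 4 h library 1 or 2 or Dps 24 h library 2 (-0.49 to -0.41 log2, adjusted p between 0.0518 and 0.0775), nor with a term for deep libraries (-0.38 log2, adjusted p = 0.101).

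Acot13, the shortest member and the most abundant per transcript length, measured 147 and 139 CPM in MnDps kidneys at 24 h and 134, 150 and 161 CPM in MnDps kidneys at 4 h. Dps kidneys held 167, 146 and 139.8 CPM at 24 h and 100.4, 95.8 and 96.3 CPM at 4 h, and controls 128, 134 and 126 CPM. The 3 Dps libraries at 4 h were the lowest of all 14 and overlapped with no other group. Acot13 fell with Dps at 4 h by 0.41 ± 0.08 log2 below vehicle (adjusted p = 0.00280), the only member lower in that comparison. MnDps at 4 h exceeded Dps at 4 h by 0.60 ± 0.08 log2 (adjusted p = 8.37e-05), and Dps at 24 h exceeded Dps at 4 h by 0.63 ± 0.08 log2 (adjusted p = 3.09e-05), or by 0.31 ± 0.07 log2 with a trend on transcript length and GC content removed (adjusted p = 0.00166). The time courses of the proteins differed by -0.68 ± 0.12 log2 (adjusted p = 0.00112).

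Several values of Acot8 and Acot13 changed when a trend on transcript length and GC content was removed. Length and GC content were taken out together, and the part of each was not tested. The longest transcript is 721 bases for Acot13 and 1276 bases for Acot8, and that of Acot4, at 6203 bases, is the longest of the family. Over all genes, MnDps at 4 h over Dps at 4 h had a median of 0.58 log2 for transcripts under 1000 bases and -0.30 log2 for those of 4000 bases or more. MnDps at 4 h over vehicle had medians of 0.42 and -0.25 log2 for the same classes, and Dps at 4 h over vehicle -0.18 and 0.03 log2. With a trend on transcript length and GC content taken out of each library, Acot8 was 0.11 ± 0.08 log2 with MnDps at 4 h over vehicle (adjusted p = 0.331) and 0.06 ± 0.08 log2 over Dps (adjusted p = 0.621). Acot13 became 0.11 ± 0.07 log2 for MnDps over Dps at 4 h (adjusted p = 0.258) and turned to -0.31 ± 0.07 log2 for MnDps at 4 h over vehicle (adjusted p = 0.00189), against 0.19 ± 0.08 log2 without the trend. The time course differences of Acot8 and Acot13 came to -0.02 and -0.07 log2. The lower Acot13 level with Dps at 4 h held, at -0.42 ± 0.07 log2 (adjusted p = 0.000329).

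With the same trend removed, Acot4 had 0.36 ± 0.07 log2 for MnDps over Dps at 4 h (adjusted p = 0.00212), against -0.01 ± 0.10 log2 without it, and its difference over time with Dps shrank to -0.05 ± 0.07 log2 (adjusted p = 0.654). Its time courses then differed by -0.58 ± 0.11 log2 (adjusted p = 0.00262), against -0.13 ± 0.15 log2 without the trend. Acot2 passed for MnDps at 24 h over vehicle with the trend removed (-0.56 ± 0.16 log2, adjusted p = 0.0393), against -0.37 ± 0.14 log2 without, and the fall of Acot12 between MnDps 24 h and 4 h did not (-0.28 ± 0.12 log2, adjusted p = 0.0985). Acot1 and Acot3 kept every 4 h call: Acot1 stood at 1.21 ± 0.16 log2 with MnDps over vehicle (adjusted p = 0.000162) and Acot3 at 0.74 ± 0.13 log2 (adjusted p = 0.000665). Whether the length trend arose in the kidneys or in library preparation was not tested.

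**Figure D3:**
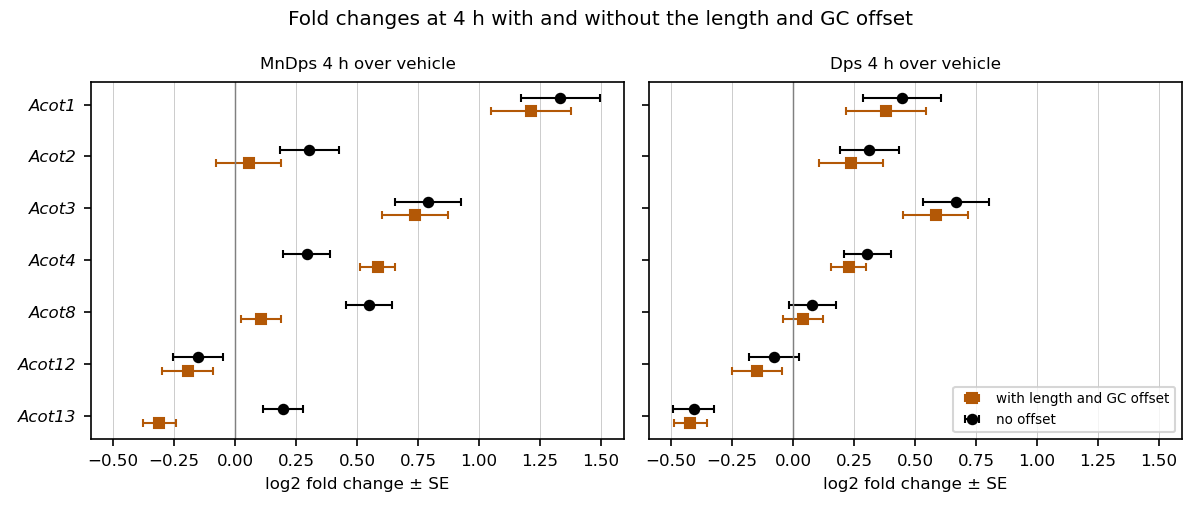
Log2 fold change ± SE at 4 h over vehicle (x axis) for each gene (y axis), for MnDps (left) and Dps (right), with a trend on transcript length and GC content taken out (squares) and without it (circles). Acot1 and Acot3 change little between the 2, whereas with MnDps Acot2 moves to 0.06, Acot4 to 0.58, Acot8 to 0.11 and Acot13 to -0.31.

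Acot12, the acetyl-CoA hydrolase gene, measured 186 and 177 CPM in MnDps kidneys at 24 h and 227, 232 and 253 CPM in MnDps kidneys at 4 h. Dps kidneys held 184, 181 and 150.1 CPM at 24 h and 292, 222 and 234 CPM at 4 h, and controls 249, 259 and 283 CPM. All 5 libraries at 24 h were below all 9 others. Acot12 at 24 h was lower than in controls, with a fold change of -0.54 ± 0.12 log2 for MnDps (adjusted p = 0.00842) and -0.62 ± 0.10 log2 for Dps (adjusted p = 0.00239). The MnDps call was lost without either MnDps 24 h library (adjusted p = 0.0601 and 0.0749), which leaves that group with 1 library, assumed to vary like the other groups. From 4 h to 24 h it fell by 0.39 ± 0.12 log2 with MnDps (adjusted p = 0.0251; lost without MnDps 4 h library 3 or either MnDps 24 h library, at 0.0516 to 0.169) and by 0.54 ± 0.10 log2 with Dps (adjusted p = 0.000630).

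Counted over the family, at 4 h 4 of 7 members were higher with MnDps than with vehicle and none lower, at a median of 0.30 log2, in a comparison where 45.6% of all 14854 genes were called. With the length and GC trend removed, 3 of 7 were higher and 1 lower in that comparison, at a median of 0.11 log2. In that fit 5660 of all 14854 genes were called. With Dps at 4 h, 2 of 7 were higher and 1 lower, at a median of 0.30 log2 as well, with 14.6% of all genes called. At 24 h over vehicle, 1 of 7 was lower with MnDps (median -0.18 log2; 13.3% of all genes called) and 2 of 7 were lower with Dps (median -0.39 log2; 20.1% called). The 4 comparisons share the 3 controls. Over all genes tested the median fold change of each of these comparisons lay between -0.02 and 0.02 log2.

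**Figure D4:**
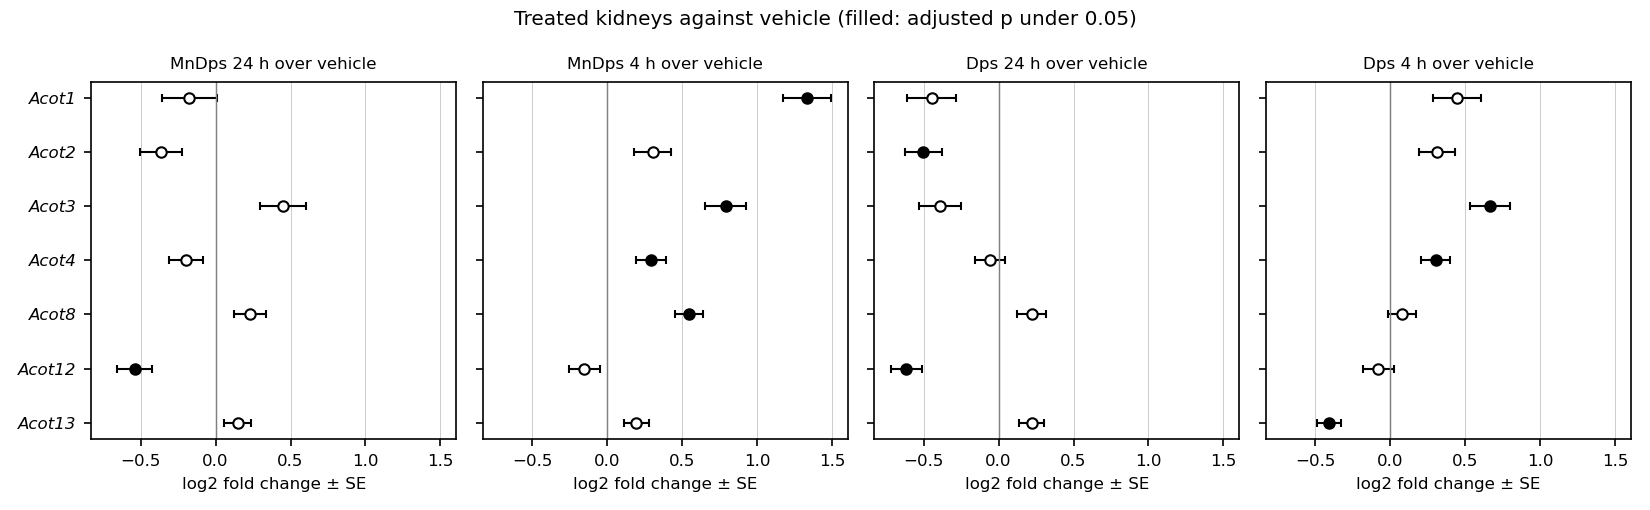
Log2 fold change ± SE over vehicle (x axis) of each acyl-CoA thioesterase (y axis) in the 4 treated groups; filled circles have an adjusted p under 0.05 in the edgeR test. Acot1 with MnDps at 4 h lies farthest from 0, at 1.33, and Acot12 is filled on the left at 24 h for both proteins.

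Between the proteins, 3 of 7 members were higher with MnDps than with Dps at 4 h (Acot1, Acot8 and Acot13) and none lower, where 41.5% of all genes were called. At 24 h the count was 1 of 7, Acot3, where 0.815% of all genes were called. Between the times, 5 of 7 were lower at 24 h than at 4 h with MnDps (21.8% of all genes called). With Dps 5 of 7 were lower and 1, Acot13, higher (44.6% of all genes called). The difference between the 2 time courses was called for 3 of 7, with 29.4% of all genes called. Set against the genome-wide shares, the counts for MnDps at 4 h over Dps and over vehicle stood near the background. With the length and GC trend removed, 2 of 7, Acot1 and Acot4, were higher with MnDps than with Dps at 4 h and none lower. In that fit 3696 of all 14854 genes were called in the same comparison. Between 24 h and 4 h with MnDps, 3 of 7 were then lower and 1 higher, where 3031 of all genes were called.

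**Figure D5:**
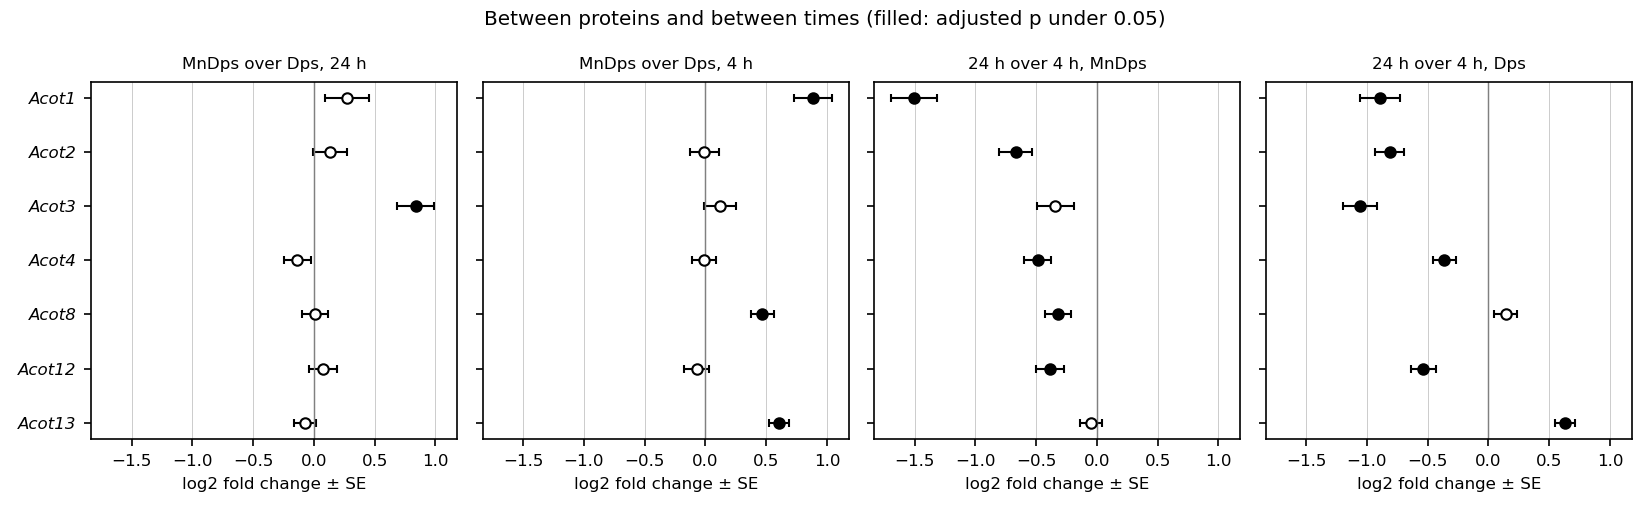
Log2 fold change ± SE (x axis) of each acyl-CoA thioesterase (y axis) between MnDps and Dps at 24 h and at 4 h, and between 24 h and 4 h with MnDps and with Dps; filled circles have an adjusted p under 0.05. At 4 h Acot1, Acot8 and Acot13 are filled on the right, and between the times most filled circles lie on the left.

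The remaining thioesterases give the setting within the family. Their values were read only without the length and GC trend removed. Of 9 such genes, 6 passed the filter. Acot5, Acot10 and Them5 did not, with at most 7 counts in any library. Acot6, the last copy of the chromosome 12 block, averaged 3.62 ± 0.14 CPM in MnDps kidneys at 24 h and 4.86 ± 0.86 CPM in MnDps kidneys at 4 h. It averaged 2.38 ± 0.24 CPM in Dps kidneys at 24 h, 6.87 ± 0.31 CPM in Dps kidneys at 4 h and 4.72 ± 1.16 CPM in controls (SD, n = 2 for MnDps at 24 h, 3 elsewhere). It rose with Dps at 4 h by 0.54 ± 0.18 log2 over vehicle (adjusted p = 0.0475) and was lower than vehicle with Dps at 24 h, with -0.99 ± 0.20 log2 (adjusted p = 0.00464). Unlike Acot1, it was lower with MnDps than with Dps at 4 h, with -0.50 ± 0.17 log2 (adjusted p = 0.0303). Its time courses differed by 1.10 ± 0.28 log2 (adjusted p = 0.00847), in the direction of Acot3.

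Acot7, known for its high level in brain, was higher with MnDps at 4 h than with Dps by 0.57 ± 0.13 log2 (adjusted p = 0.00290) and than with vehicle by 0.35 ± 0.13 log2 (adjusted p = 0.0429). Them4, a mitochondrial thioesterase gene, was higher with MnDps than with Dps at 4 h by 0.33 ± 0.12 log2 (adjusted p = 0.0334). Both were also higher with Dps at 24 h than at 4 h, Acot7 by 0.55 ± 0.13 log2 (adjusted p = 0.00356) and Them4 by 0.47 ± 0.12 log2 (adjusted p = 0.00392). Acot11 was higher at 24 h than at 4 h with MnDps by 0.32 ± 0.09 log2 (adjusted p = 0.0218) and with Dps by 0.28 ± 0.08 log2 (adjusted p = 0.0113). Acot9, a mitochondrial member, and Baat, which joins bile acids to amino acids, were called in none of the 9 comparisons.

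Among the 7 genes, only Acot1 and Acot3 had group means that spanned at least 1 on the log2 scale, with 1.77 for Acot1 and 1.15 for Acot3. Likeness to each was measured as the root mean square difference of the 5 centred group means, over 13301 genes with a mean of at least 1 CPM. Nearest to Acot1 were Gm13889 (0.103 log2), Arg2 (0.159), Socs2 (0.167) and Apoa1 (0.189), whereas Acot2 ranked at 249 and Acot3 at 259. Socs2, a feedback inhibitor of growth hormone signalling, averaged 10.8 CPM in MnDps kidneys at 24 h, 32.3 CPM in MnDps kidneys at 4 h, 9.39 CPM in Dps kidneys at 24 h, 22.5 CPM in Dps kidneys at 4 h and 16.5 CPM in controls. Nearest to Acot3 were Camk2b (0.121 log2), Apobec3 (0.125), Igfals (0.125) and Gprc5a (0.128), with Acot2 at rank 393. The lists rest on 5 group means and are a description.

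Genes that share the substrates of the thioesterases were read from lists of the surrounding pathway. The lists were read only without the length and GC trend removed. Of 29 known PPAR-alpha targets tested, 11 were higher and 2 lower with MnDps at 4 h than with vehicle, at a median of 0.22 log2, where 45.6% of all genes were called. With Dps at 4 h 2 were higher and 1 lower, at 0.14 log2, with 14.6% of all genes called. Both shares of the list stood near or below those of all genes. Cyp4a14, a fatty acid omega-hydroxylase, rose with MnDps at 4 h by 1.95 ± 0.61 log2 over vehicle (adjusted p = 0.0250) and Plin2, which coats lipid droplets, by 0.83 ± 0.16 log2 (adjusted p = 0.000883). At 24 h with Dps, 9 of the 29 were lower than vehicle and none higher (median -0.27 log2; 20.1% of all genes called), among them Cpt1a, which admits long chains to mitochondria (-0.56 ± 0.09 log2, adjusted p = 0.00239). With MnDps at 24 h 3 were lower and 1 higher, where 13.3% of all genes were called. Between 24 h and 4 h with Dps, 16 were lower and 1 higher (median -0.41 log2; 44.6% of all genes called), and with MnDps 7 were lower and none higher (median -0.27 log2; 21.8% called).

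In mitochondrial fatty acid oxidation, 9 of 18 genes were higher and 1 lower with MnDps at 4 h than with vehicle (median 0.23 log2; 45.6% of all genes called), whereas none was called with Dps at 4 h (14.6% of all genes called). MnDps exceeded Dps at 4 h for 11 of the 18, with 1 lower, where 41.5% of all genes were called. Eci1, an isomerase for unsaturated chains, averaged 127.9 ± 5.69 CPM in MnDps kidneys at 4 h and 81.2 ± 6.77 CPM in controls (0.66 ± 0.08 log2, adjusted p = 1.73e-05). Cpt2, the inner-membrane carnitine transferase, rose by 0.54 ± 0.08 log2 (adjusted p = 0.000144). Between 24 h and 4 h with MnDps, 8 of the 18 were lower and none higher, with 21.8% of all genes called.

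In the peroxisomal pathway, 6 of 20 genes were higher and 2 lower with MnDps at 4 h than with vehicle, where 45.6% of all genes were called. Acaa1a, a peroxisomal thiolase, rose by 0.84 ± 0.10 log2 (adjusted p = 7.83e-06). At 24 h over vehicle the counts were 1 higher and 6 lower with MnDps (13.3% of all genes called), and 1 higher and 7 lower with Dps (20.1% called). Crot, which prepares shortened chains for export from peroxisomes, averaged 379 ± 5.88 CPM in MnDps kidneys at 24 h and 656 ± 70.9 CPM in controls (-0.79 ± 0.15 log2, adjusted p = 0.00386). Ehhadh, the bifunctional peroxisomal enzyme, was also lower, with -0.52 ± 0.16 log2 for MnDps (adjusted p = 0.0410) and -0.59 ± 0.14 log2 for Dps (adjusted p = 0.00972).

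The acyl-CoA synthetases make the substrate of the thioesterases. Of 16 tested, 2 were higher and 6 lower with MnDps at 4 h than with vehicle (median -0.14 log2; 45.6% of all genes called), and none was higher and 1 lower with Dps at 4 h (14.6% called). Acsl5, a long-chain synthetase, rose with MnDps at 4 h by 0.48 ± 0.08 log2 (adjusted p = 0.000207), and Acsm5, a medium-chain synthetase, fell by 0.50 ± 0.09 log2 (adjusted p = 0.000561). Acsl1, another long-chain synthetase, averaged 139.6 ± 9.35 CPM in Dps kidneys at 24 h and 247 ± 19.5 CPM in controls (-0.82 ± 0.13 log2, adjusted p = 0.00239).

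Of 13 genes of coenzyme A synthesis and breakdown, 4 were higher and 4 lower with MnDps at 4 h than with vehicle, with 45.6% of all genes called. Pank3, a kinase that starts coenzyme A synthesis, averaged 49.0 ± 5.25 CPM in MnDps kidneys at 4 h and 117 ± 10.5 CPM in controls (-1.26 ± 0.11 log2, adjusted p = 3.82e-07). Vnn1, which splits pantetheine, rose by 0.66 ± 0.09 log2 with MnDps (adjusted p = 7.16e-05) and by 0.53 ± 0.09 log2 with Dps (adjusted p = 0.000899) at 4 h.

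Among 21 regulators of fatty acid oxidation, 1 was higher and 8 were lower with MnDps at 4 h than with vehicle (median -0.35 log2), where 45.6% of all genes were called. Ppargc1a, a coactivator of PPAR-alpha, averaged 46.5 ± 9.52 CPM in MnDps kidneys at 4 h and 85.6 ± 10.6 CPM in controls (-0.88 ± 0.13 log2, adjusted p = 0.000109). Klf15, a transcription factor of fasting metabolism, fell by 0.87 ± 0.09 log2 (adjusted p = 1.69e-06). Ppara itself was lower with Dps at 24 h than at 4 h, with -0.66 ± 0.21 log2 (adjusted p = 0.0223).

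Other signals moved with these groups, and their part in the thioesterase values was not tested. The 8 adipocyte markers summed to 58.2 to 149 CPM in MnDps kidneys at 24 h, 106 to 174 CPM in MnDps kidneys at 4 h, 106 to 175 CPM in Dps kidneys at 24 h, 131 to 184 CPM in Dps kidneys at 4 h and 45.1 to 85.0 CPM in controls. At 4 h over vehicle, 4 of them rose with MnDps (45.6% of all genes called) and 5 with Dps (14.6% of all genes called). The 6 hepatocyte markers summed to 189 to 259 CPM in MnDps kidneys at 24 h, 372 to 418 CPM in MnDps kidneys at 4 h, 291 to 299.7 CPM in Dps kidneys at 24 h, 263 to 328 CPM in Dps kidneys at 4 h and 264 to 385 CPM in controls. The 7 endothelial markers summed to 466 to 522 CPM in MnDps kidneys at 24 h, 207 to 257 CPM in MnDps kidneys at 4 h, 412 to 482 CPM in Dps kidneys at 24 h, 214 to 284 CPM in Dps kidneys at 4 h and 356 to 410.2 CPM in controls. No marker of these 3 lists was at 0 in any group. The neutrophil markers found, 5 of 6 listed, summed to 1.26 to 1.43 CPM in MnDps kidneys at 24 h, 10.3 to 18.0 CPM in MnDps kidneys at 4 h, 1.49 to 2.53 CPM in Dps kidneys at 24 h, 4.501 to 7.20 CPM in Dps kidneys at 4 h and 0.516 to 1.32 CPM in controls, where Mmp8 was at 0. S100a8, a neutrophil calcium-binding protein gene, rose with MnDps at 4 h by 6.76 ± 0.68 log2 over vehicle (adjusted p = 2.07e-06). Its means were 3.51 CPM in MnDps kidneys at 4 h and 0.0179 CPM in controls, so the size of that change rests on a control level near 0. The 7 macrophage markers summed to 167 to 172 CPM in MnDps kidneys at 24 h, 92.7 to 102 CPM in MnDps kidneys at 4 h, 162 to 176 CPM in Dps kidneys at 24 h, 94.0 to 105 CPM in Dps kidneys at 4 h and 110.0 to 132 CPM in controls. The 7 collecting duct markers summed to 855 to 1029.6 CPM in MnDps kidneys at 24 h, 629 to 761 CPM in MnDps kidneys at 4 h, 863 to 926 CPM in Dps kidneys at 24 h, 454 to 554 CPM in Dps kidneys at 4 h and 547 to 665 CPM in controls. The 6 markers of the thick ascending limb summed to 3338 to 3925 CPM in MnDps kidneys at 24 h, 4233 to 5121 CPM in MnDps kidneys at 4 h, 3774 to 4682 CPM in Dps kidneys at 24 h, 4401 to 5223 CPM in Dps kidneys at 4 h and 5399 to 6739 CPM in controls. Of 16 clock genes, 5 were higher and 2 lower with MnDps at 24 h than with vehicle (13.3% of all genes called), and 5 higher and 4 lower with Dps (20.1% called). At 4 h over vehicle, 2 were higher and 6 lower with MnDps (45.6% of all genes called), and 2 higher and 0 lower with Dps (14.6% called). MnDps against Dps at 4 h gave 0 higher and 7 lower, where 41.5% of all genes were called. Arntl, a core clock activator, was lower than vehicle at 24 h, with -1.84 ± 0.32 log2 for MnDps (adjusted p = 0.00279) and -1.62 ± 0.27 log2 for Dps (adjusted p = 0.00239).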

How the data were processed

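RNA from frozen kidneys was made into Illumina TruSeq Stranded mRNA libraries and read in pairs of 75 bases, per the labels' protocols. The authors used STAR, featureCounts and mm10, per the submitters' processing notes. The sources used here give no versions, annotation, strand setting or rule for reads that fit several genes. Values as deposited are raw counts of reads for each gene symbol, without normalisation.

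From these counts, edgeR 4.0.16 in R 4.3.3 removed 9567 genes with filterByExpr by group. One fit of 5 group means over 14 libraries (9 residual degrees of freedom, TMM scaling, robust dispersion, biological coefficient of variation 10.7%) gave 9 comparisons by quasi-likelihood tests, with Benjamini-Hochberg adjustment over 14854 genes and calls under 0.05. The SE is the log2 fold change over the square root of F. CPM uses the scaled library size. The pipeline was tested on simulated counts with changes set in Dps at 4 h only. These counts held no length or GC trend, so the effect of such a trend on calls was not covered. Markers were checked by summed CPM. The members and all lists were chosen with earlier results of these data known. Genes were named by rule: every member and other thioesterase, and from each list at most 4 called genes a comparison with the largest change and at least 1 CPM. Alternatives were median-of-ratios factors, 2 other filters, DESeq2 1.42.0, fits of only the groups compared, a length and GC offset (96.5% of tested genes had a length), a term for libraries over 30000000 counts, summed copies and leaving out each library.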

Additional observations from a re-analysis of the deposited data

Results flagged for a closer look

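The change from 4 h to 24 h differed between MnDps and Dps for 3 members, by the interaction term of the edgeR fit, where 29.4% of all genes tested were called. For Acot3 the time course with MnDps minus that with Dps was 0.72 ± 0.20 log2 (adjusted p = 0.0148). For Acot13 it was -0.68 ± 0.12 log2 (adjusted p = 0.00112). For Acot8 it was -0.46 ± 0.14 log2 (adjusted p = 0.0228). With the length and GC offset the values were 0.63 log2 for Acot3 (adjusted p = 0.0445), -0.07 log2 for Acot13 (adjusted p = 0.689) and -0.02 log2 for Acot8 (adjusted p = 0.943). Without 1 library in turn, the Acot3 difference ran from 0.49 to 0.92 log2 and lost its call once, that of Acot8 ran from -0.51 to -0.41 log2 and lost it 5 times of 11, and that of Acot13 ran from -0.75 to -0.59 log2 and lost it never.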

How the results depend on the processing

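Each member was read in 9 comparisons, 63 values in all. Median-of-ratios factors and no count filter changed no call, the stricter filter added 1, DESeq2 added 5, fits of only the groups compared added 4 and lost 1, and the term for deep libraries lost 2. Over the fits that left out 1 library, 350 values kept their side of the threshold, 11 gained a call and 31 lost one. The length and GC offset kept 50, gained 2 with the same sign and lost 8. Another 3 changed sign and were called only with the offset. These were Acot13 at 0.24 log2 for MnDps 24 h over 4 h and -0.31 log2 for MnDps 4 h over vehicle, and Acot4 at 0.36 log2 for MnDps over Dps at 4 h. Without the offset their adjusted p-values in the edgeR test were 0.738, 0.0629 and 0.938. The cause was not tested.

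Counts of called genes moved with the offset to 1161 (MnDps 24 h over vehicle, 1978 without it), 1488 (Dps 24 h over vehicle, 2979), 3726 (Dps 4 h over vehicle, 2168), 3696 (MnDps over Dps at 4 h, 6158) and 2358 (interaction, 4368). The term for deep libraries gave 1033 (MnDps 24 h over vehicle), 1637 (Dps 24 h over vehicle), 4225 (Dps 24 h over 4 h, 6626), 3558 (MnDps over Dps at 4 h) and 68 (MnDps over Dps at 24 h, 121). That last count was 566 with DESeq2 and 727 in a fit of only the groups compared, and MnDps 24 h over 4 h gave 1878 in such a fit (3242). Leaving out 1 library in turn gave 300 to 2562 (MnDps 24 h over vehicle, lowest without MnDps 24 h library 1), 4956 to 6814 (MnDps 4 h over vehicle), 843 to 3529 (Dps 24 h over vehicle, lowest without control library 3) and 1435 to 1849 (Dps 4 h over vehicle). It gave 5 to 45 (MnDps over Dps at 24 h), 4670 to 5948 (MnDps over Dps at 4 h), 1336 to 3176 (MnDps 24 h over 4 h), 5203 to 5918 (Dps 24 h over 4 h) and 2724 to 4598 (interaction). No paired analysis was possible because the labels give no replicate numbers.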
